A study of Mus musculus with 4 samples.

Results

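Pericytes are mural cells that sit within the basement membrane of capillaries and share it with the endothelium. In the brain they regulate capillary tone, hold the blood-brain barrier in a closed state through contact with endothelial cells and astrocyte endfeet, and depend on platelet-derived growth factor B from the endothelium, which they receive through the receptor encoded by Pdgfrb. After ischaemia they are known to constrict capillaries, to die or detach in the infarct, and to contribute to matrix and repair at its border.

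Pericytes were defined here by their transcripts in single-cell RNA libraries of mouse brain. Cells with 200 to 6000 detected genes and at most 10% mitochondrial molecules were kept. A kept cell was a pericyte when it held a unique molecular identifier (UMI, the tag that marks 1 captured RNA molecule) of at least 3 of the 5 markers Kcnj8, Atp13a5, Abcc9, Anpep and Cd248, of at most 1 of the 5 smooth muscle markers Myh11, Lmod1, Pln, Cnn1 and Map3k7cl, and no UMI of the oligodendrocyte gene Mog or the microglial gene C1qa. This gave 2191 pericytes among 54754 kept cells (4.00%) and 59429 deposited cells. The values that chose the cells are the 10 markers, Mog and C1qa themselves, so their levels below are a description.

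All mice were male C57/BL6 animals of 8 weeks. Transient middle cerebral artery occlusion (tMCAO), in which a filament blocks the artery and is then withdrawn so that blood returns, was followed by 1, 3 or 7 days of reperfusion, and sham mice were the control. The ipsilateral hemisphere was dissected after perfusion with cold saline, digested with papain and cleared of myelin on Percoll before droplet capture. Each condition was 1 library, and the number of mice in a library is not given in the sources used here, nor is the day of the sham library given in 1 way throughout: the design text places it at day 7. No test across animals could therefore be made. Intervals in brackets are exact 95% intervals that cover counting error only, and they say nothing on how mice vary.

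The sham library gave 368 pericytes, the day 1 library 591, the day 3 library 631 and the day 7 library 601. As a share of kept cells, sham stood at 3.61% [3.26–3.99], day 1 at 3.54% [3.26–3.83], day 3 at 5.59% [5.17–6.02] and day 7 at 3.63% [3.35–3.93]. Day 3 was the highest of the 4 and its interval lay apart from the others, whereas the shares in sham and on days 1 and 7 had overlapping intervals. With cells thinned to 1000 UMIs before the rule was read, and the 863, 2142, 967 and 2102 kept cells below that depth left out, the shares were 1.66%, 1.94%, 4.16% and 2.64%, and day 3 was also the highest under all 7 alternative settings of the rule. Marker levels, dissociation yield and cell number all enter such a share, and they cannot be told apart here.

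Among mural cells, pericytes together with smooth muscle cells called by the mirror rule, pericytes made up 31.7% [29.1–34.5] in the sham library, 44.8% [42.1–47.5] in the day 1 library, 41.6% [39.1–44.2] in the day 3 library and 26.3% [24.5–28.1] in the day 7 library. The smooth muscle cells numbered 792, 728, 885 and 1686. With a mitochondrial limit of 5% it was 64.4%, 54.2%, 50.1% and 58.0%, so that the order of the libraries was no longer the same.

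Depth differed between the libraries. A pericyte held a median of 3517.5 UMIs in sham, 1668 on day 1, 2264 on day 3 and 2352 on day 7, and summed UMIs over all pericytes were 2158845, 1933060, 1951681 and 1890117. Each pair of libraries shared 21 to 80 barcodes of kept cells, and 1 pericyte barcode was shared, by days 1 and 7. Levels below are CPM, the UMIs of a gene summed over the cells named and scaled to a fixed total per library.

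The label was checked against pericyte genes that the rule did not read. All 23 genes of an identity list, among them Pdgfrb, Rgs5, Vtn, Notch3 and Cspg4, were detected in every library. Cells with 3 markers, just inside the rule, held the identity list at 20718 CPM in sham, 18273 on day 1, 36001 on day 3 and 24546 on day 7. Cells with 2 markers, just outside, held it at 9732, 8068, 11391 and 10274 CPM, and cells with no marker at 673, 498, 652 and 871 CPM. A second rule on Rgs5, Vtn, Pdgfrb, Higd1b and Ndufa4l2 took in 595, 1034, 843 and 821 cells, of which 61.5%, 56.4%, 73.8% and 71.4% met the first rule. The pericyte identity of the cells was thus seen in genes outside the rule, with a graded edge rather than a gap.

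Transcripts of other cells were present in the pericytes. The choroid plexus list summed to 7360, 21724, 23284 and 15153 CPM in all pericytes and was also high in endothelial cells, at 6078, 26273, 29021 and 10126 CPM. A list of 14 endothelial genes, such as the tight junction gene Cldn5 and the adhesion gene Pecam1, summed to 15505 CPM in sham pericytes, 11376 on day 1, 7182 on day 3 and 7592 on day 7. Set against endothelial cells of the same library, this was 48.9% of their level in sham, 40.8% on day 1, 22.5% on day 3 and 25.6% on day 7. The endothelial signal came from a minority of cells. Pericytes with UMIs of at most 1 of Cldn5, Ly6c1, Ly6a, Flt1 and Pecam1, called endothelial-poor below, numbered 207, 430, 472 and 423 (1532 in all, 69.9%), and held the list at 1.67%, 2.43%, 2.04% and 2.39% of the endothelial level. The other pericytes held it at 65.3%, 65.7%, 46.1% and 50.4%.

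The endothelial-rich pericytes were also larger by UMI, with medians of 8886, 4544, 3688 and 3933 against 2639, 1406, 2107.5 and 2091 in the endothelial-poor cells. Scrublet, which calls barcodes that hold 2 cells, marked 4 of 161, 62 of 161, 34 of 159 and 71 of 178 endothelial-rich pericytes, and 0, 4, 0 and 3 endothelial-poor ones. Endothelial-poor cells were 56.2% [51.0–61.4] of sham pericytes and 72.8%, 74.8% and 70.4% on days 1, 3 and 7, so the sham sum carried the most endothelial RNA. For this reason each result is given in the endothelial-poor pericytes first, with the value in all pericytes where they differ. Their own endothelial level was fixed by that choice and is no finding.

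**Figure D1:**
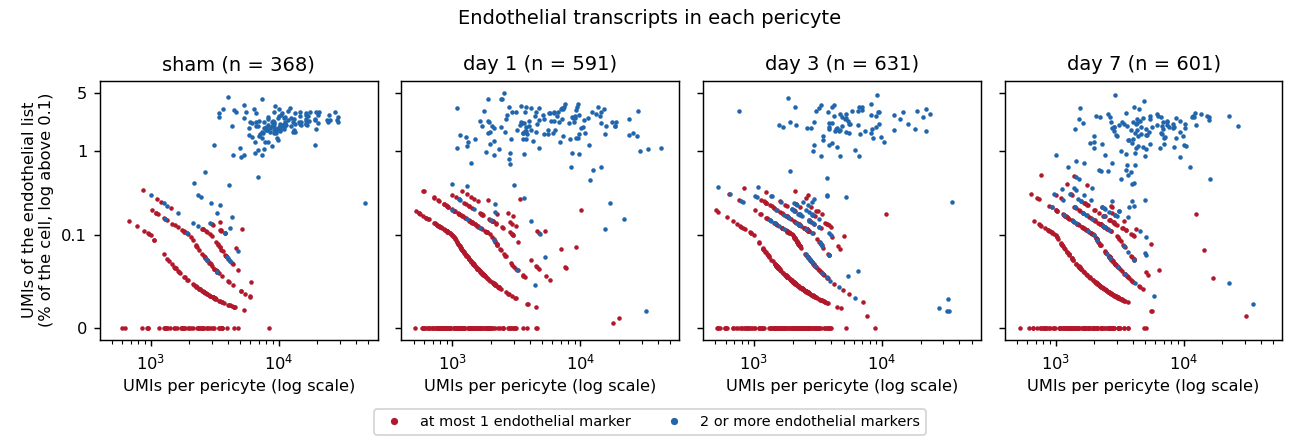
Each point is 1 pericyte, with its UMIs on a log axis against the percentage of them from the 14 endothelial genes (log above 0.1%), by library and coloured by whether it held at most 1 endothelial marker. Endothelial-rich pericytes form a cloud with medians of 2.03%, 1.78%, 0.870% and 1.20%, while the medians over all pericytes were 0.107%, 0.0946%, 0.0758% and 0.0958%.

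The choice of cells altered how many genes passed a fold. Genes of at least 50 CPM in 1 of both libraries were compared, and a gene was counted when its CPM, with 10 added, differed at least 2-fold. In endothelial-poor pericytes, 110 of 4214 genes (2.61%) were that much higher on day 1 than in sham and 91 (2.16%) that much lower. On day 3 it was 32 (0.751%) and 42 (0.985%) of 4262, and on day 7 it was 120 (2.7%) and 34 (0.765%) of 4445. In all pericytes the counts were 112 higher and 150 lower on day 1 (2.81% and 3.76% of 3987), 132 and 200 on day 3 (3.1% and 4.7% of 4258), and 279 and 126 on day 7 (6.23% and 2.81% of 4479). The day 1 counts of both sets had 64 higher and 48 lower genes in common, those of day 3 had 12 and 24, and those of day 7 had 57 and 18. By this count day 3 differed least from sham once endothelial-rich cells were left out. Sham and day 3 were also the libraries with fewer deposited cells, 11744 and 11983 against 17780 and 17922 on days 1 and 7. The part of this in the count was not tested. The split of higher against lower genes in all pericytes also turned with the scaling: under trimmed mean of M-values (TMM) scaling, day 7 had 77 higher and 264 lower genes and day 3 had 68 higher ones, and with endothelial carry-over subtracted from each gene day 7 had 914 and 38. The median log2 ratio over all compared genes in all pericytes was -0.04, 0.10 and 0.14 on days 1, 3 and 7, and in endothelial-poor pericytes it was -0.01, 0.09 and 0.08, and levels are read relative to these.

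Most identity genes stayed within 2-fold of sham after tMCAO. The list summed to 48926 CPM in sham endothelial-poor pericytes, 38256 on day 1, 54840 on day 3 and 37470 on day 7, a ratio to sham of 0.78 [0.77–0.80], 1.12 [1.10–1.14] and 0.77 [0.75–0.78]. Of the 23 genes, none was 2-fold higher on any day, beside 2.61%, 0.751% and 2.7% of all genes, and 1, Art3, was 2-fold lower on day 1, beside 2.16%. These counts are near the share over all genes. In all pericytes the same list gave 0.89, 1.64 and 1.17, with 5 of 23 genes 2-fold higher on day 3 and 5 on day 7, beside 3.1% and 6.23% of all genes. Under TMM scaling the day 7 ratio in all pericytes was 0.968, on the other side of sham. The higher ratios in all pericytes came with the lower endothelial share on those days, whose part was not tested.

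Vtn, which encodes the adhesive plasma protein vitronectin, set much of that sum. It stood at 24270 CPM [23862–24683] in sham, 16019 [15736–16306] on day 1, 27874 [27555–28196] on day 3 and 14422 [14185–14662] on day 7. Sham and day 3 were high and days 1 and 7 low, with no overlap of their counting intervals. Of the other identity genes, the G-protein signalling regulator Rgs5 held 5757, 5338, 6473 and 6085 CPM, and the receptor gene Pdgfrb held 2216, 1786, 2180 and 2231 CPM. Both stayed within 0.806 and 1.12 times the sham level on every day.

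Art3, of the mono-ADP-ribosyltransferase family, and Gper1, a membrane oestrogen receptor, were low on day 1. Art3 read 1344 CPM in sham, 644 on day 1, 1337 on day 3 and 977 on day 7, and its day 1 ratio was 0.480 [0.427–0.538]. Gper1 read 963, 517, 885 and 583 CPM, a day 1 ratio of 0.537 [0.470–0.613]. For both genes day 3 returned to the sham level and day 7 lay between. To compare shares of cells at 1 depth, endothelial-poor pericytes were thinned to 1000 UMIs, which left 194 of 207 in sham, 328 of 430 on day 1, 432 of 472 on day 3 and 387 of 423 on day 7. The others were too shallow, most of them on day 1, and every share of thinned cells refers to the cells left. Of these, 64.4%, 46.6%, 68.1% and 60.7% held an Art3 UMI, against 0.202% to 0.271% of endothelial cells.

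A trio of identity genes for mitochondrial proteins, grouped here outside any fixed list, was lowest on day 7. Cox4i2 was also below sham on day 1, at 1056 against 1274 CPM. Ndufa4l2, which encodes a respiratory chain subunit paralogue, stood at 2294, 2237, 2391 and 1325 CPM (day 7 ratio 0.578 [0.534–0.625]). Cox4i2, an isoform of a cytochrome c oxidase subunit, stood at 1274, 1056, 1430 and 713 CPM (0.560 [0.504–0.623]). Higd1b, a hypoxia-inducible domain family member, stood at 2180, 2311, 2495 and 1518 CPM (0.696 [0.645–0.752]). Ndufa4l2 and Higd1b were also lowest on day 7 in smooth muscle cells, where they read 538, 450, 459 and 323 CPM and 512, 572, 375 and 233 CPM.

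The identity list holds 6 transcription factor genes, and in endothelial-poor pericytes none was past 2-fold on any day, which says little where 0.751% to 2.7% of all genes were. Zic1, a zinc finger factor, stood at 421 CPM in sham, 596 on day 1, 750 on day 3 and 835 on day 7, with ratios of 1.42 [1.21–1.66], 1.78 [1.54–2.07] and 1.98 [1.71–2.30]. Foxc1, a forkhead factor needed for mural cell development, stood at 245, 272, 305 and 479 CPM, and was set apart on day 7 at 1.96 [1.61–2.39]. Ebf1 stood at 819, 1110, 806 and 984 CPM and Heyl at 335, 300, 417 and 343 CPM. Tbx18 stood at 98.9, 142, 146 and 139 CPM and Foxf2 at 104, 120, 119 and 134 CPM. Each library after tMCAO thus had more Zic1 than sham, and only the day 7 library had clearly more Foxc1.

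The genes of the rule itself, described without a test, followed no single course in endothelial-poor pericytes. The potassium channel subunit Kcnj8 stood at 1724, 1161, 2004 and 1364 CPM, its partner Abcc9 at 1171, 1498, 1835 and 1795 CPM, and the cation ATPase gene Atp13a5 at 1610, 1630, 2339 and 2137 CPM. Anpep, which encodes an aminopeptidase, stood at 282, 289, 315 and 297 CPM, and Cd248, which encodes the stromal protein endosialin, at 455, 825, 730 and 594 CPM. Kcnj8 was the only one of the 5 with its lowest value on day 1. Abcc9, Atp13a5, Anpep and Cd248 were lowest in sham, the library with the deepest cells, and the part of depth was not tested.

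**Figure D2:**
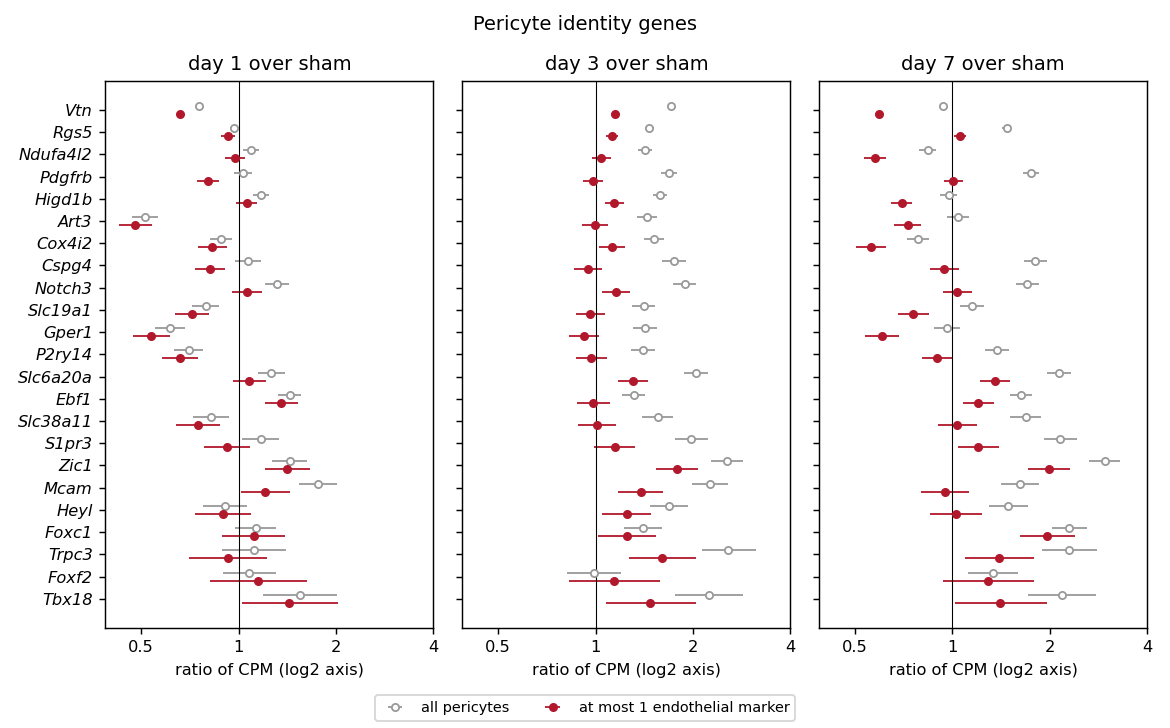
The ratio of CPM to sham for each of the 23 identity genes on a log2 axis, with exact 95% counting intervals, in endothelial-poor (filled) and all pericytes (open) on days 1, 3 and 7. In endothelial-poor cells Art3 at 0.480 on day 1 is the only gene past 2-fold, and most open points lie to the right of the filled ones on days 3 and 7.

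The genes named for a day are up to 8 with the largest ratio in each direction in all pericytes. They come from genes of at least 100 CPM whose endothelial carry-over was under 25% of their level. This filter favours genes that are lower in endothelial cells, so a lower endothelial level of a gene named for a day is no finding. Only 7 lower genes were named for day 3. The 8 higher genes of day 1 were Spp1, Lgals1, Dcn, S100a11, Col5a3, Serping1, Meg3 and Emilin1. All 8 were also higher in endothelial-poor pericytes, by 1.78-fold for the long non-coding RNA Meg3 to 23.7-fold for Spp1. Endothelial-poor cells are most of the cells in which the genes were chosen, so such agreement is no separate support.

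Spp1 encodes osteopontin, a secreted phosphoprotein that binds integrins and CD44. It stood at 90.0 CPM [66.8–119] in sham endothelial-poor pericytes, 2132 [2029–2238] on day 1, 494 [452–538] on day 3 and 897 [839–959] on day 7. All 3 libraries after tMCAO were above sham, with ratios of 23.7 [17.9–32.1], 5.49 [4.10–7.50] and 9.98 [7.50–13.5]. The 3 cells with the most Spp1 held 46.0%, 34.4%, 18.2% and 13.5% of its UMIs, and without them the levels were 48.6, 1398, 404 and 777 CPM.

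Of the thinned endothelial-poor pericytes, the share with a Spp1 UMI was 6.19% [3.24–10.6] in sham, 30.5% [25.5–35.8] on day 1, 15.7% [12.4–19.5] on day 3 and 24.8% [20.6–29.4] on day 7. In endothelial cells at the same depth it was 0.146%, 1.89%, 0.422% and 0.178%. Microglia, a known source of Spp1 after injury, held it at 6.44, 3032, 1169 and 1427 CPM, and fibroblasts at 2000, 4464, 1886 and 6592 CPM in 38, 126, 42 and 33 cells. The level in pericytes thus lay below that of microglia after tMCAO and far above that of endothelial cells in each library.

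Lgals1, which encodes the glycan-binding protein galectin-1, stood at 318 CPM [273–369] in sham, 1409 [1325–1496] on day 1, 511 [469–556] on day 3 and 235 [206–268] on day 7. S100a11, a calcium-binding protein gene, stood at 236 CPM in sham, 986 on day 1, 469 on day 3 and 244 on day 7. Both were highest on day 1, with ratios of 4.42 [3.77–5.22] for Lgals1 and 4.19 [3.47–5.08] for S100a11, and on day 7 the ratios were 0.739 [0.605–0.904] for Lgals1 and 1.03 [0.832–1.29] for S100a11. A UMI of Lgals1 was found in 23.2%, 52.7%, 31.9% and 16.8% of thinned endothelial-poor cells, and one of S100a11 in 19.1%, 49.1%, 37.0% and 21.2%, so most of the day 1 level was not that of a few cells. Endothelial cells held S100a11 at 243, 556, 491 and 258 CPM and smooth muscle cells held Lgals1 at 586, 1186, 1073 and 500 CPM, both with their maximum on day 1 as well.

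The matrix genes Col5a3, a chain of fibrillar collagen V, and Emilin1, an elastic fibre glycoprotein, had the same peak. Col5a3 stood at 57.6, 172, 96.7 and 32.7 CPM (day 1 ratio 2.99 [2.02–4.55]), and Emilin1 at 84.6, 181, 101 and 84.9 CPM (2.15 [1.53–3.06]). Serping1, which encodes the inhibitor of the first complement component, was above sham on both early days, at 66.6, 200, 168 and 89.0 CPM, with ratios of 3.00 [2.09–4.43] on day 1 and 2.53 [1.77–3.71] on day 3. Dcn, the proteoglycan decorin, stood at 52.2, 249, 118 and 128 CPM, but 3 cells held 57.7% of its UMIs on day 1, 80.5% on day 3 and 75.2% on day 7. Without the top 3 cells of each library it was 37.8, 105, 23 and 31.7 CPM, so only day 1 stayed above sham.

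Of the matrix and protease lists, the interstitial list of 20 genes summed to 1472, 4131, 2025 and 2400 CPM in endothelial-poor pericytes. The fibroblast list, which shares Dcn, Lum and Col1a1 with it, stood at 288, 1018, 461 and 1020 CPM in the same cells, and its part was not tested. Spp1 is itself a member of the interstitial list and made up most of the rise of its sum over sham on each day. Of the genes compared 2 of 7 were 2-fold higher on day 1, 2 of 7 on day 3 and 3 of 8 on day 7. The shares of all genes that much higher were 2.61%, 0.751% and 2.7%, and none of the list was 2-fold lower. Spp1 and Dcn, the latter held mostly by few cells, were among those counted on each day. The basement membrane list, the substrate that pericytes and endothelium share, differed less in sum (6507, 6834, 6382 and 5684 CPM), with 2 of 13 genes 2-fold higher on day 1, beside the same 2.61%. Its collagen IV chains stood higher on day 1: Col4a1 read 741, 1332, 785 and 699 CPM (1.80 [1.60–2.02]) and Col4a2 398, 660, 374 and 328 CPM (1.66 [1.41–1.95]). The laminin chain gene Lamb1 read 93.6, 209, 156 and 93.1 CPM (2.24 [1.62–3.12]).

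Timp3, which encodes a matrix-bound inhibitor of metalloproteinases, was above sham on every day and highest on day 7. It stood at 327 CPM [282–379], 785 [723–851], 659 [610–710] and 1208 [1140–1278], ratios of 2.40, 2.01 and 3.69 [3.15–4.34]. It was found in 24.2%, 47.3%, 38.2% and 51.2% of thinned endothelial-poor cells. Endothelial cells read 747, 555, 590 and 1430 CPM and smooth muscle cells 718, 748, 770 and 1378 CPM, so the day 7 library held the highest level in all 3 cell classes, while on day 1 the endothelial level was below sham.

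Complement and acute phase genes were higher in part. Of the complement list, 2 of 3 compared genes were 2-fold higher on day 1, beside 2.61% of all genes, and 1 of 3 on day 3 and on day 7, beside 0.751% and 2.7%. Cp, the copper oxidase ceruloplasmin, a gene picked after its values were seen, stood at 360, 859, 495 and 786 CPM, ratios of 2.39 [2.03–2.81], 1.38 and 2.18 [1.87–2.56]. Cp was high on days 1 and 7 and lower on day 3, whereas in endothelial cells it was highest on day 3, at 173, 154, 403 and 306 CPM.

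In the STAT3 and acute phase list, 3 of 6 compared genes were 2-fold higher on day 1, beside 2.61% of all genes. On day 3 none was higher, beside 0.751%, and 1 of 6, Socs3, was lower, beside 0.985%, and on day 7 1 of 7, Steap4, was higher, beside 2.7%. Socs3 and Steap4 were chosen after their values were seen. The 3 of day 1 were Osmr, the oncostatin M receptor, and Cebpb and Cebpd, factors of the acute phase, of which Cebpd was chosen after its values were seen. Osmr stood at 91.8, 216, 164 and 127 CPM (day 1 ratio 2.35 [1.71–3.29]) and Cebpd at 205, 442, 253 and 269 CPM (2.15 [1.74–2.69]). Cebpb stood at 144, 383, 148 and 131 CPM, with 41.2% of its day 1 UMIs in 3 cells. In all pericytes the day 3 ratio of the list was 2.19 [2.08–2.31], with 3 of 8 compared genes 2-fold higher, beside 3.1% of all genes. In endothelial-poor pericytes it was 1.05 [0.946–1.17]. Lcn2, the siderophore-binding lipocalin, differed between both sets of pericytes. It stood at 12.5, 35.2, 806 and 68.8 CPM in all pericytes, with endothelial cells at 59, 157, 2752 and 246 CPM, and at 0, 6.58, 25.8 and 0 CPM in endothelial-poor pericytes, where 27 UMIs made up the day 3 value.

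The chemokine list was below sham in all pericytes on each of the 3 days, with ratios of 0.708, 0.493 and 0.705. In endothelial-poor pericytes it was above sham on day 1, at 1.79 [1.52–2.11], and most of that rise was Ccl2, described below. On days 3 and 7 the list was 1.14 [0.964–1.34] and 1.15 [0.972–1.36] there, with intervals that held the sham level. In all pericytes it stood at 1205, 853, 594 and 850 CPM, and in endothelial-poor pericytes at 381, 683, 434 and 438 CPM. Cxcl12, the ligand of Cxcr4, chosen after its values were seen, made up most of the sum in all pericytes of sham and days 3 and 7. It stood at 991, 328, 419 and 651 CPM in all pericytes and 268, 143, 273 and 229 CPM in endothelial-poor ones, beside 1905, 724, 1210 and 2566 CPM in endothelial cells. Ccl2, the monocyte attractant, had 1 UMI in sham endothelial-poor cells, 204 on day 1, 5 on day 3 and 0 on day 7, that is 1.80, 268, 4.79 and 0 CPM. Of the day 1 UMIs 52.5% were in 3 cells, and 4.27% [2.35–7.06] of thinned cells held 1, against 0.569% of endothelial cells. Microglia held it at 1172, 1239, 804 and 196 CPM. Ccl2 in pericytes was thus found in few cells, nearly all of them in the day 1 library. Il34, a ligand of the colony-stimulating factor receptor on microglia, stood at 729, 836, 751 and 502 CPM, lower on day 7 (0.690 [0.603–0.789]).

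The genes named as lower on day 1 were Dbp, Carmn, Rrad, Cog7, Nodal, Slc25a33, Art3 and Nts. All 8 were lower in endothelial-poor pericytes too, with ratios from 0.176 for Dbp to 0.480 for Art3, again in most of the cells that chose them. Dbp, a bZIP transcription factor whose mRNA cycles with the circadian clock, stood at 889 CPM [812–971] in sham, 157 [130–187] on day 1, 892 [836–951] on day 3 and 357 [321–397] on day 7. The sham and day 3 libraries were alike and the day 1 and day 7 libraries low. Endothelial cells were also lowest on day 1, at 229, 81.3, 219 and 166 CPM, with day 7 nearer to sham, whereas smooth muscle cells were low on day 1 only, at 243, 51.9, 276 and 259 CPM.

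Carmn, a long non-coding RNA of mural and cardiac lineages, stood at 380, 112, 193 and 323 CPM (day 1 ratio 0.294 [0.226–0.381]) and was near absent from endothelial cells (0.220 to 0.998 CPM). Rrad, a Ras-related GTPase that restrains calcium channels, stood at 322, 142, 376 and 188 CPM, and Nodal, a ligand of the TGF-beta family, at 331, 154, 432 and 213 CPM. Cog7, a subunit of a Golgi tethering complex, stood at 259, 94.7, 204 and 188 CPM. Nts, the neuropeptide neurotensin, stood at 209, 86.8, 138 and 86.0 CPM with 33.6%, 27.3%, 21.5% and 22.6% of its UMIs in 3 cells. In Rrad and Nodal, as in Dbp, sham and day 3 were above days 1 and 7.

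Contractile and cytoskeletal genes were higher in sum on day 1, at 14348, 19120, 17072 and 13279 CPM, a ratio of 1.33 [1.30–1.37]. Of 16 genes compared on day 1, 2 were 2-fold higher, beside 2.61% of all genes, and of the 15 and 16 compared on days 3 and 7 none was, beside 0.751% and 2.7%. Vim, the intermediate filament vimentin, stood at 175 CPM [142–213] in sham, 618 [564–677] on day 1, 213 on day 3 and 143 on day 7 (day 1 ratio 3.54 [2.84–4.45]). Tmsb10, an actin monomer-binding peptide gene picked after its values were seen, stood at 448, 1217, 538 and 388 CPM (2.72 [2.36–3.14]). In all pericytes both were far higher in level, as they are in endothelial cells, and read 869, 1771, 465 and 381 CPM for Vim.

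Genes of the contractile apparatus itself differed among themselves. Acta2, smooth muscle actin, stood at 139, 154, 171 and 212 CPM, and Tagln, transgelin, at 139, 205, 103 and 201 CPM with 44.9% to 49.4% of the day 1 and day 7 UMIs in 3 cells. The myosin light chain gene Myl9, chosen after its values were seen, stood at 2512, 1981, 2498 and 1460 CPM, lower on day 7 (0.581 [0.540–0.626]), and caldesmon, Cald1, at 2407, 1827, 2073 and 3581 CPM, higher on day 7 (1.49 [1.40–1.59]). The 2 genes thus differed from sham in opposite directions on day 7. Both were below sham on day 1, when the sum of the contractile and cytoskeletal list was above it. The smooth muscle marker list stood at 259, 262, 257 and 233 CPM, but 5 of its 8 genes are those the rule read, so its low level was fixed by the choice of cells.

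In endothelial-poor pericytes day 3 had the fewest genes past 2-fold, whereas in all pericytes day 1 had the fewest. Of the 8 higher named genes of day 3, chosen in all pericytes, 3 were haemoglobin genes, whose UMIs were held by few cells. The others were Serping1, Slc12a2, Etv1, Dpysl2 and Atp1b1, with ratios of 2.53, 1.85, 1.98, 2.27 and 0.941 in endothelial-poor pericytes. Atp1b1, a sodium pump subunit, was therefore not higher there. The 7 lower named genes of day 3 were Nts, Ifi27, Spsb2, Map1lc3a, Cbx5, Spry1 and Susd6, and only Ifi27 was past 2-fold, and only in endothelial-poor pericytes.

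The heat shock list was above sham on day 3 and below it on days 1 and 7. The list of 12 summed to 5892, 5006, 8587 and 4814 CPM in endothelial-poor pericytes, with ratios of 0.85 [0.81–0.89], 1.46 [1.40–1.52] and 0.82 [0.78–0.86]. On day 3, 1 of 12 compared genes was 2-fold higher, beside 0.751% of all genes, with a median log2 ratio of 0.47 beside 0.09 for all genes. That gene was Hspa1b, an inducible chaperone of the Hsp70 family, at 175, 309, 810 and 83.9 CPM (day 3 ratio 4.64 [3.76–5.79]). Hspb1, a small heat shock protein gene, stood at 1083, 918, 1839 and 801 CPM and was found in 51.5%, 47.6%, 70.6% and 47.8% of thinned cells.

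Hspa1b was also high in the other cells of the day 1 and day 3 libraries, at 84.0, 781, 931 and 100 CPM in endothelial cells and 37.1, 245, 223 and 67.1 CPM in smooth muscle cells. With the lowest level found in 5 other classes of the library taken off each gene as free RNA, the heat shock ratio on day 3 was 1.54 in endothelial-poor pericytes. In all pericytes the heat shock ratios were 0.919, 1.22 and 0.719, and the day 3 value was 1.12 after the subtraction. The hypoxia and glycolysis list stood at 3755, 3821, 4997 and 3165 CPM. On day 3, 1 of its 12 compared genes, Adm, was 2-fold higher, beside 0.751% of all genes, with a median log2 ratio of 0.38, and its day 3 ratio of 1.33 became 1.09 after the same subtraction. In all pericytes the day 3 ratio went from 1.30 to 1.06. The day 1 ratio of this list went from 1.02 to 0.629 in endothelial-poor pericytes and from 1.11 to 0.822 in all pericytes.

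Of the 4 genes of that list named by the rule, Ndrg1 and Slc2a1 were low in endothelial-poor pericytes, at 28.8, 18.4, 19.1 and 34.8 CPM and at 43.2, 31.6, 39.2 and 54.2 CPM. Adm, the vasodilator peptide adrenomedullin, stood at 39.6 CPM [24.8–59.9], 72.3 [54.5–94.2], 152 [129–178] and 29.7 [19.9–42.6], a day 3 ratio of 3.85 [2.45–6.31]. P4ha1, a collagen prolyl hydroxylase gene, stood at 121, 71.0, 202 and 194 CPM, ratios of 0.589 [0.404–0.856], 1.68 [1.27–2.24] and 1.61 [1.21–2.16]. Angptl4, which encodes a secreted inhibitor of lipoprotein lipase and belongs to the Notch and angiogenic list, stood at 7.20, 110, 5.74 and 51.2 CPM from 4, 84, 6 and 50 UMIs. Days 1 and 7 were high for Angptl4 and days 3 and sham near its floor, and endothelial cells had the same order at 12.6, 65.7, 7.71 and 32.3 CPM.

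The promoter of P4ha1 is shown because it carries the core letters of the hypoxia response element, ACGTG or its reverse complement. Its 250 bases before the transcript start lie at chr10:59323046-59323295 on the plus strand (RefSeq, GRCm38.p6), and capitals mark the 1 match, which ends 11 bases before the start.
P4ha1: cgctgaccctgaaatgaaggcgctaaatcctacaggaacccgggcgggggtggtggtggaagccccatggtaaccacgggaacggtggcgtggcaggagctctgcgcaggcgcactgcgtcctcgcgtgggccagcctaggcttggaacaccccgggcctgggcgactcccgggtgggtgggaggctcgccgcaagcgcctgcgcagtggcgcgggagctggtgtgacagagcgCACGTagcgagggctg
Such a match was found in 11 of the 18 genes of the hypoxia list with a promoter in the table (61.1%) and in 18.5% of 27025 genes overall. A match is a description of the letters and not of a bound site.

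**Figure D3:**
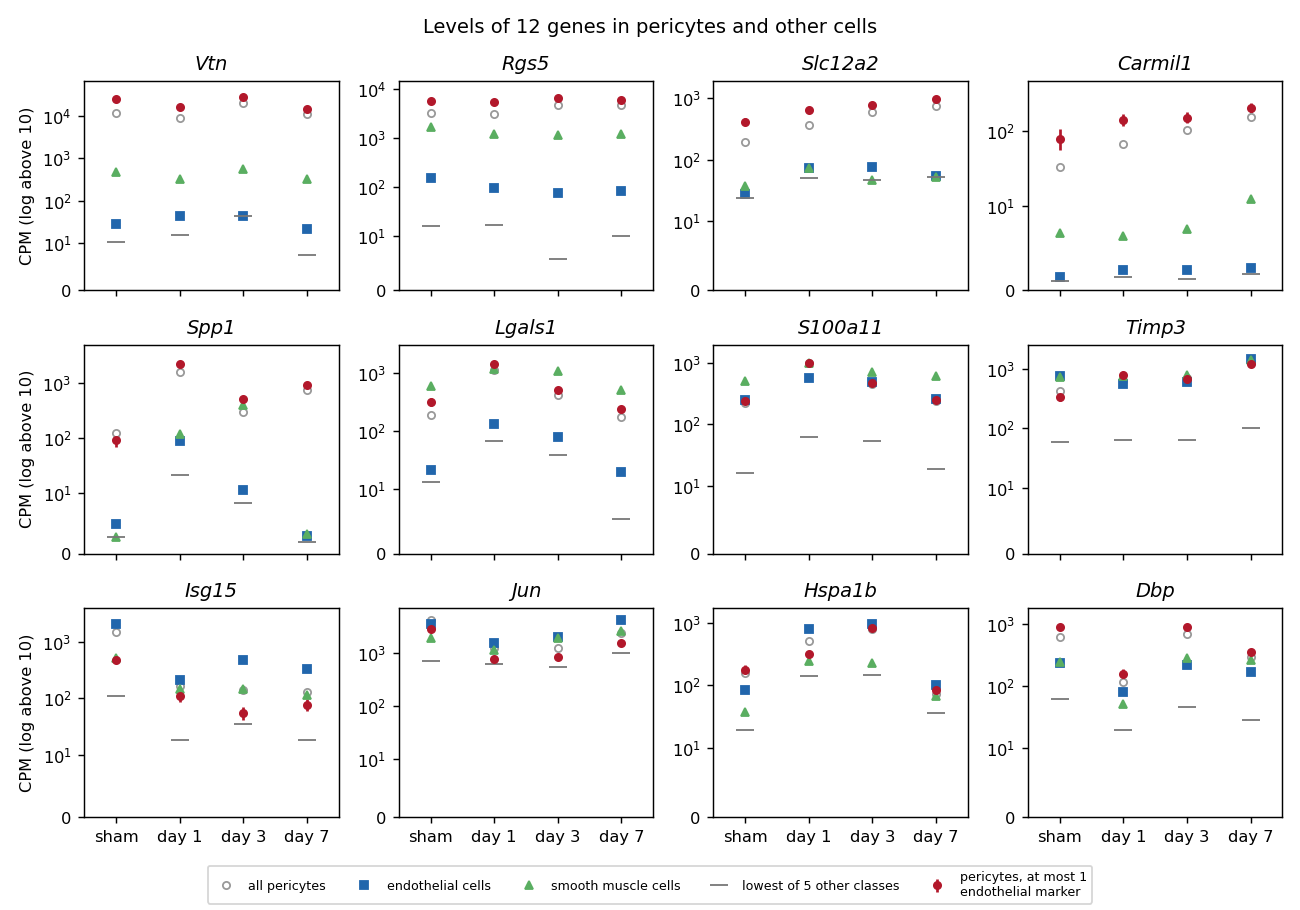
CPM of 12 genes by library (log above 10 CPM) in endothelial-poor pericytes, with exact 95% counting intervals, in all pericytes, endothelial cells and smooth muscle cells, and as the lowest level over 5 other classes. In endothelial-poor pericytes Spp1, Lgals1 and S100a11 peak on day 1 at 2132, 1409 and 986 CPM, Hspa1b on day 3 at 810 CPM and Slc12a2 on day 7 at 960 CPM, while Isg15 and Jun are highest in sham at 479 and 2871 CPM.

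The sham library had the most interferon-stimulated RNA. The list of 18 interferon genes summed to 1822 CPM in sham endothelial-poor pericytes, 629 on day 1, 499 on day 3 and 690 on day 7, with ratios of 0.345 [0.309–0.385], 0.274 [0.246–0.304] and 0.378 [0.343–0.418]. Of the genes compared 7 of 9 were 2-fold lower on day 1, 8 of 9 on day 3 and 7 of 10 on day 7, none higher, beside 2.16%, 0.985% and 0.765% of all genes, with median log2 ratios of -1.35, -1.70 and -1.19. In all pericytes 18, 12 and 14 of 18 were 2-fold lower, beside 3.76%, 4.7% and 2.81% of all genes. Endothelial-poor pericytes had a smaller day 1 difference than all pericytes (0.345 against 0.170), and the list was below sham in all 11 alternative settings on each day.

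Isg15, a ubiquitin-like protein conjugated in response to interferon, stood at 479 CPM [423–540] in sham, 108 [85.8–134] on day 1, 53.6 [40.5–69.6] on day 3 and 75.7 [59.5–95.1] on day 7. It was found in 26.3% [20.2–33.1] of thinned sham cells and in 5.79%, 3.94% and 5.68% afterwards. Endothelial cells held it at 2044, 211, 479 and 323 CPM, smooth muscle cells at 519, 145, 145 and 115 CPM, and oligodendrocytes, the lowest of 5 other classes in each library, at 109, 18.4, 34.3 and 18.1 CPM. Microglia stood at 613, 112, 121 and 98.4 CPM, astrocytes at 258, 44.4, 137 and 62.1 CPM and fibroblasts at 686, 179, 323 and 192 CPM. In each of these 6 classes the sham library was above the other libraries.

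Ifit3 and Ifit1, antiviral proteins with tetratricopeptide repeats, read 255, 60.5, 57.4 and 79.8 CPM and 119, 28.9, 19.1 and 42.0 CPM. Ifi27, an interferon-inducible mitochondrial protein gene that was named by the rule on days 3 and 7, read 1144, 413, 392 and 454 CPM, with ratios of 0.361, 0.342 and 0.397. Its endothelial level did not follow (337, 397, 600 and 377 CPM), and 66.5%, 26.8%, 27.8% and 26.4% of thinned endothelial-poor pericytes held a UMI of it. Xaf1 and Irf9, picked after their values were seen, read 178, 35.5, 48.8 and 62.4 CPM and 126, 22.4, 28.7 and 71.6 CPM. The MHC class I list was lower by less, at 1500, 1143, 1196 and 1096 CPM.

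The promoters of Isg15, Ifit1 and Ifit3 are shown because the letters of the interferon-stimulated response element (GAAA, 2 bases of any kind, GAAA, on either strand) repeat in each. All are the 250 bases before the start in RefSeq, GRCm38.p6, with matches in capitals. Isg15 lies at chr4:156200819-156201068 on the minus strand, with 3 overlapping matches that end 68, 62 and 56 bases before the start. Ifit1 lies at chr19:34640639-34640888 on the plus strand, with 2 matches that end 94 and 75 bases before it, and Ifit3 at chr19:34583279-34583528 on the plus strand, with 2 that end 146 and 112 bases before it.
Isg15: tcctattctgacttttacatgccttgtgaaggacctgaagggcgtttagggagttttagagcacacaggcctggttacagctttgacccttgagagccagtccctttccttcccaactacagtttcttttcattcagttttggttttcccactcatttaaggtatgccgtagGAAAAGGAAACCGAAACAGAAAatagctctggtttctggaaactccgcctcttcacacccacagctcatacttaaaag
Ifit1: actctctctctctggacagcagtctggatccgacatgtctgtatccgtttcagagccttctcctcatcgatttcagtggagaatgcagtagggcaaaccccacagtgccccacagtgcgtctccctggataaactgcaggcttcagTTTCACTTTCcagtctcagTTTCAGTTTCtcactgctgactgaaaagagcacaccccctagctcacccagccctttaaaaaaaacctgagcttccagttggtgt
Ifit3: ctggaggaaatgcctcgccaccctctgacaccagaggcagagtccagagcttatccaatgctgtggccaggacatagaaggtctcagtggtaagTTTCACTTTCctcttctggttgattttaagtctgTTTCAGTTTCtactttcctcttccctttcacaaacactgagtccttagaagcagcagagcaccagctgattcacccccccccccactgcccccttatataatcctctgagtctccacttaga
A match was found in 9 of the 14 interferon genes with a promoter in the table (64.3%) and in 3.46% of all genes. The motif was added to the search after the values were seen. Among the day 1 higher genes with a promoter it was in 1 of 5, Spp1, and NF-kB letters (GGGA, 2 bases of any kind, TTCC), STAT letters (TTCC, 1 base, GGAA) and heat shock factor letters (GAA, 2 bases, TTC, 2 bases, GAA) were in none, against 1.36%, 1.09% and 0.514% of all genes. AP-1 letters (TGA, 1 base, TCA) were in 1 of 5, S100a11, against 7.82% of all genes.

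Immediate early genes were highest in sham in the pericytes, but not in the other cells of the vessel wall. The list read 27002, 16387, 18351 and 28637 CPM in endothelial cells and 23328, 18462, 21050 and 27939 CPM in smooth muscle cells, both with day 7 above sham. The sum was 12851 CPM in sham endothelial-poor pericytes, 6797 on day 1, 4808 on day 3 and 9229 on day 7, ratios of 0.53, 0.37 and 0.72. With free RNA subtracted these ratios were 0.271, 0.147 and 0.380. Of 16, 15 and 16 genes compared, 5, 9 and 0 were 2-fold lower, beside 2.16%, 0.985% and 0.765% of all genes, and 1, 0 and 1 higher, beside 2.61%, 0.751% and 2.7%. Fos and Jun, which encode subunits of AP-1, stood at 3168, 1456, 940 and 1894 CPM and at 2871, 793, 835 and 1581 CPM. The phosphatase gene Dusp1 stood at 718, 279, 202 and 626 CPM. Thinned cells with a Jun UMI were 43.8%, 19.5%, 14.1% and 33.1%.

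The libraries also differed in nuclear and ribosomal RNA. Malat1, a nuclear long non-coding RNA, stood at 60444, 35914, 29523 and 54652 CPM in endothelial-poor pericytes, and Gm42418, a locus that overlaps ribosomal RNA, at 12874, 1950, 2611 and 5555 CPM. Sham and day 7 were high in Malat1, as they were in immediate early genes, and sham was highest in Gm42418. Days 1 and 7 had more kept cells marked by Scrublet, 7.54% and 6.31% against 2.92% in sham and 2.31% on day 3. Days 1 and 7 were set apart from sham and day 3 in Vtn, Dbp, Rrad and Nodal as well. The part of such differences between libraries in the results above was not tested.

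The 8 higher named genes of day 7 were Spp1, Enpp2, Dcn, Carmil1, Slc12a2, Abca9, Pde4c and Ogn. Enpp2, the lysophospholipase autotaxin, had 90.9% of its day 7 UMIs in 3 endothelial-poor cells and read 57.3 CPM without them, below the 103 CPM of sham. In Carmil1, Slc12a2, Abca9, Pde4c and Ogn the top 3 cells held 4.58% to 9.13% of the day 7 UMIs, and in Spp1 13.5%.

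Slc12a2, the sodium-potassium-chloride cotransporter NKCC1, stood at 410 CPM [359–467] in sham, 634 [579–693] on day 1, 758 [706–813] on day 3 and 960 [899–1023] on day 7. The intervals of the 4 libraries did not overlap, and the ratios were 1.55 [1.32–1.82], 1.85 [1.59–2.15] and 2.34 [2.02–2.72]. A UMI was found in 30.4%, 48.2%, 52.1% and 55.0% of thinned endothelial-poor cells and in 2.52%, 4.26%, 4.00% and 3.82% of endothelial cells, while oligodendrocytes, which also express it, reached 38.5%, 37.8%, 36.1% and 49.9%. The pericyte share was above the endothelial one in each library, which the carry-over filter on named genes favours.

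Carmil1, a regulator of actin capping protein, stood at 77.4, 139, 149 and 202 CPM (day 7 ratio 2.61 [1.87–3.71]) beside 1.55 to 2.68 CPM in endothelial cells. Pde4c, a cAMP phosphodiesterase gene, stood at 110, 138, 179 and 228 CPM (2.08 [1.56–2.81]) beside 0.406 to 0.593 CPM. Abca9, a lipid transporter family member, stood at 45.0, 89.4, 84.2 and 136 CPM (3.03 [1.96–4.84]), and the small proteoglycan gene Ogn, osteoglycin, at 121, 208, 175 and 235 CPM (1.95 [1.48–2.60]). Etv1, an ETS factor, stood at 88.2, 150, 174 and 200 CPM (2.26 [1.65–3.16]). In each of these 5 genes, day 7 was the highest library and sham the lowest. Carmil1, Pde4c, Abca9 and Ogn were named for their day 7 ratio and Etv1 for its day 3 ratio, so this order was partly fixed by the choice.

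Atp2a3, a calcium pump of the endoplasmic reticulum, was highest on day 3, at 410, 442, 661 and 348 CPM (1.61 [1.39–1.88]). Of the transporter list, 1 of 11 compared genes, Slc12a2, was 2-fold higher on day 7, beside 2.7% of all genes. Tgfbi, a matrix protein induced by TGF-beta, stood at 39.6, 82.9, 54.6 and 124 CPM (day 7 ratio 3.13 [1.98–5.18]).

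The 8 lower named genes of day 7 were Nts, Dbp, Ifi27, Slc25a33, Hspa1a, Oaf, Spsb2 and Tmem86a, with ratios of 0.397 to 0.617 in endothelial-poor pericytes. Tmem86a, an enzyme of ether lipid breakdown, stood at 345, 157, 283 and 150 CPM, and Oaf at 291, 147, 264 and 134 CPM. Slc25a33, a mitochondrial nucleotide carrier, stood at 184, 76.3, 181 and 105 CPM. Like Dbp, these genes were low on days 1 and 7 and near the sham level on day 3.

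**Figure D4:**
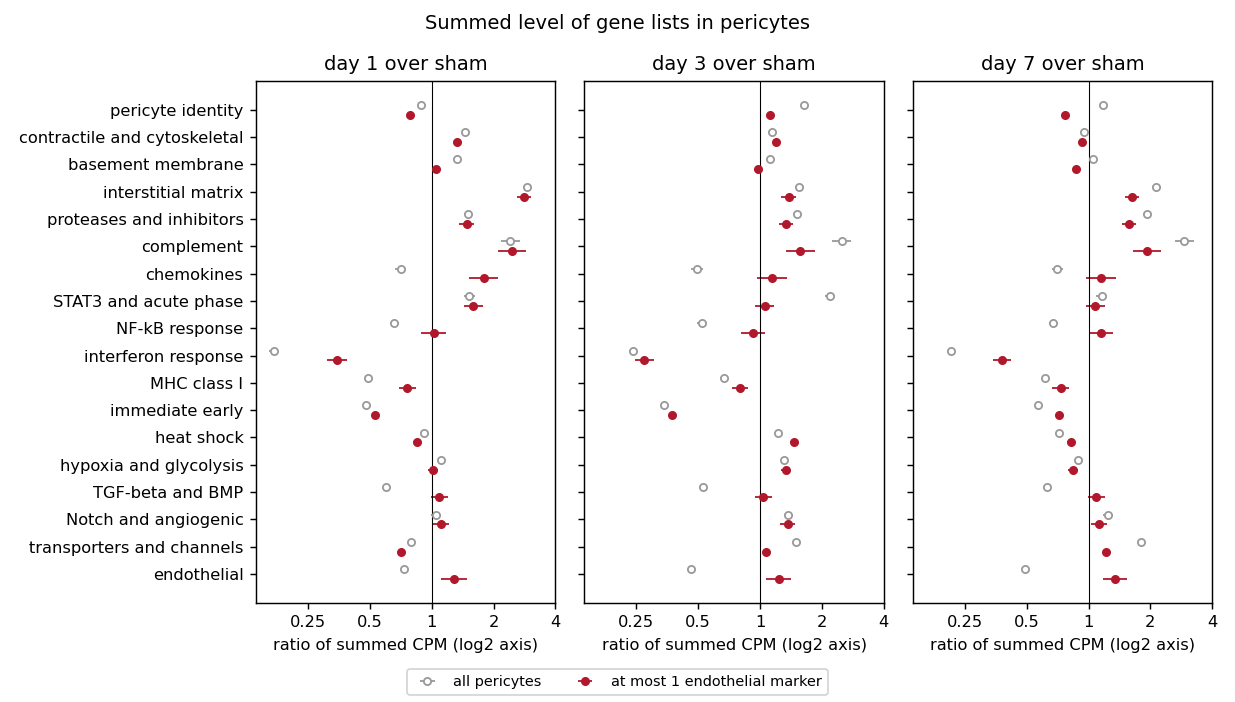
The ratio of the summed CPM of 18 gene lists to sham on a log2 axis, with exact 95% counting intervals, in endothelial-poor (filled) and all pericytes (open) on days 1, 3 and 7. The interferon list lies furthest below 1, at 0.345, 0.274 and 0.378 in endothelial-poor cells, and the chemokine list lies on opposite sides of 1 on day 1, at 1.79 and 0.708. Most of the day 1 rise of the chemokine list in endothelial-poor cells was Ccl2.

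Markers of other cells within endothelial-poor pericytes were uneven, low for some lists and high for others. The microglial list summed to 68, 113, 97 and 64 CPM, the astrocyte list to 110, 256, 116 and 123 CPM, and the neutrophil list to 2, 3, 54 and 4 CPM. The neuron list, which holds Meg3, named above among the higher genes of day 1, stood at 338, 726, 281 and 398 CPM, and 2 of its 3 compared genes, Snap25 and Syt1, were 2-fold higher on day 1, beside 2.61% of all genes. Its part in the Meg3 level was not tested. The fibroblast list stood at 288, 1018, 461 and 1020 CPM, with 3 of its 8 genes at 0 in sham. The oligodendrocyte list was 565, 10203, 351 and 1507 CPM, and Ptgds made up most of it on day 1 (9889 CPM), 91.1% of it in 3 cells. Haemoglobin genes were 10947, 54, 12799 and 48 CPM, with 97.0% and 98.4% of the Hbb-bs UMIs of sham and day 3 in 3 cells. Ttr, the choroid plexus transthyretin gene, was 2049, 18945, 2052 and 13375 CPM, with 82.9% and 92.6% of the day 1 and day 7 UMIs in 3 cells.

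Without those 3 cells Ttr stood at 1770, 3231, 1962 and 991 CPM and Hbb-bs at 228, 28.9, 126 and 23.5 CPM. The part of such cells in each gene is therefore given where it was large, and their part in the sums of the lists was not tested.

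Cells of 1 library differed most from each other in these same genes. Among endothelial-poor pericytes thinned to 1000 UMIs, the Fano factor, the variance of a gene over its mean, was highest for Hbb-bs in sham and on day 3, for Ptgds on day 1 and for Ttr on day 7, at 436, 483, 319 and 120, against medians over all genes of 1.02, 1.02, 1.04 and 1.03. Spp1 was among the first 10 on day 1, at 15.8, and on day 7, at 6.34. Ccl2 was among them on day 1 at 7.29, and Hspa1a and Hspa1b on days 1 and 3, at 6.76 and 7.18 and at 11.8 and 8.44. Spp1, Ccl2, Hspa1a and Hspa1b were thus uneven across the pericytes of those libraries.

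**Figure D5:**
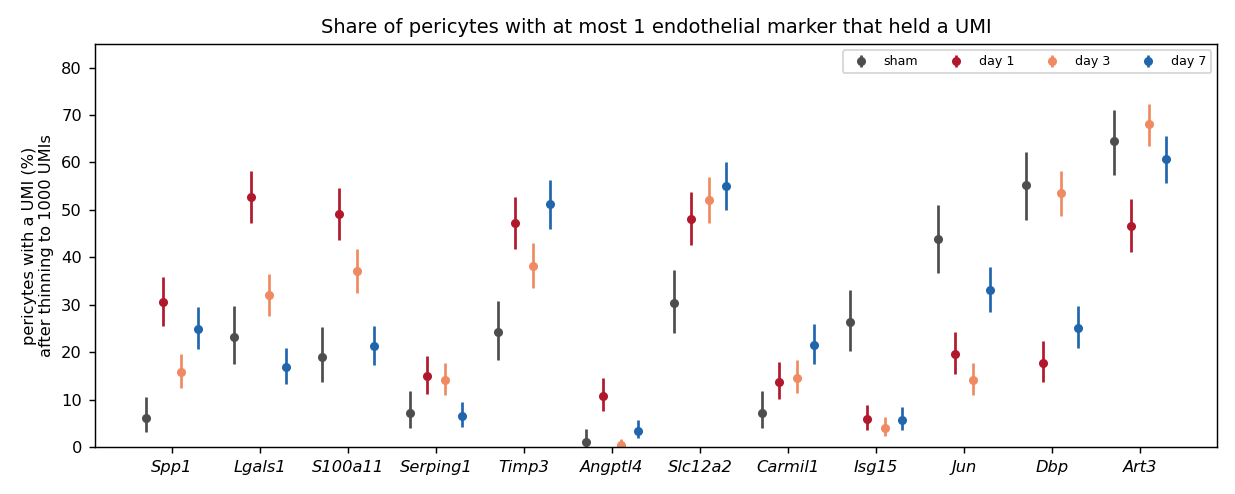
Percentage of endothelial-poor pericytes with a UMI of each of 12 genes after thinning to 1000 UMIs per cell, by library, with exact 95% binomial intervals. Spp1 stands at 6.19% in sham and 30.5% on day 1, Slc12a2 at 30.4% in sham and 55.0% on day 7, and Dbp at 55.2% in sham and 17.7% on day 1.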

How the data were processed

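Per the file headers and methods, the authors aligned 10x 3′ reads and deposited, for each of the 4 libraries, a matrix of UMI counts per gene and cell. The matrix header names Cell Ranger 4.0.0 and the submitters' processing notes 3.0.1. Those notes name a human build, yet 99.6% of the 31053 gene IDs matched the mouse annotation GENCODE vM21. The counts carried no cell annotation.

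Pericytes were called by the stated rule, and UMI counts were summed per library and divided by their total (CPM). Ratios are plain CPM ratios, and 2-fold counts add 10 CPM and need 50 CPM in 1 of both libraries. Endothelial carry-over is the endothelial list level in pericytes over that in endothelial cells. Other classes need UMIs of at least 3 of their 5 markers. Shares were read after thinning to 1000 UMIs. Doublets were called with Scrublet and kept. Scanpy 1.11.5, scipy 1.17.1 and numpy 2.4.6 (Python 3.11.15) were used, and the scripts were tested on simulated data.

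With 1 library per group there was no test across animals. Named genes are up to 8 with the largest ratio in each direction per day. They had at least 100 CPM, a carry-over under 25% of their level and no other class above 5 times that level. To these were added the whole identity list and up to 4 members of each other list with the largest log2 ratio. The 10 genes per library with the largest Fano factor were also added. Promoters were read from RefSeq, in a table of 27025 genes. The members and lists were chosen with earlier results of these data known, and genes called picked or chosen after their values were seen lie outside the rule. Alternatives covered the marker thresholds, cell filters, doublets, a second marker rule, endothelial-poor cells, scaling and the CPM minimum. Free RNA subtraction was chosen after seeing the data. Some genes are not reported here.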

Additional observations from a re-analysis of the deposited data

Results flagged for a closer look

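In 4 gene lists the ratio to sham was past 1.5-fold in one direction in endothelial-poor pericytes and past 1.5-fold in the other in another class of the vessel wall, and in each case the difference was not tested. Lists that lay on opposite sides of sham by less are not given. The chemokine list on day 1 was 1.79 in endothelial-poor pericytes, 0.708 in all pericytes and 0.485 in endothelial cells. Ccl2 made up most of the rise of its sum in endothelial-poor pericytes, and most of the day 1 UMIs of Ccl2 were in 3 cells. No ratio without these cells is given. The metallothionein list on day 3 was 0.629 in endothelial-poor pericytes and 1.69 in smooth muscle cells. In all pericytes it was 0.936 [0.875–1.002], near the sham level. The fibroblast list on day 7 was 3.54 in pericytes and 0.507 in smooth muscle cells. The oligodendrocyte list on day 3 was 0.622 in endothelial-poor pericytes and 2.13 in smooth muscle cells. In all pericytes it was 1.90 [1.72–2.09], on the same side of sham as in smooth muscle cells. In pericytes the fibroblast gene Dcn had 75.2% of its day 7 UMIs in 3 cells.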

How the results depend on the processing

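No paired analysis was possible because each condition was 1 library. The values below are for all pericytes, in the order sham, day 1, day 3 and day 7 where 4 are given, and the cause of each difference was not tested. The pericyte share of kept cells, 3.61%, 3.54%, 5.59% and 3.63%, was 4.51%, 5.14%, 6.78% and 4.54% with at least 2 markers, 2.41%, 1.87%, 4.00% and 2.47% with at least 4, 5.84%, 6.19%, 7.46% and 4.96% with the second marker rule, and 1.66%, 1.94%, 4.16% and 2.64% after thinning. With an upper limit of 3000 genes it was 4.02%, 6.38% and 3.98% on days 1, 3 and 7, and with a limit of 5% mitochondrial UMIs 4.11% in sham and 4.17% on day 7. The share of mural cells was 36.7%, 54.1%, 46.4% and 30.8% with at least 2 markers, 23.7%, 30.1%, 33.8% and 19.5% with at least 4, 64.4%, 54.2%, 50.1% and 58.0% with the 5% limit, and 42.9%, 58.7%, 48.8% and 32.7% with the second rule. It was 29.0% in sham and 48.3% on day 3 after thinning, and 44.9% on day 3 with the 3000 gene limit. Endothelial carry-over was 15.6%, 22.0%, 10.3% and 14.9% with the 3000 gene limit, 48.1%, 34.2%, 18.0% and 16.8% without doublets, 60.9%, 49.1%, 35.4% and 35.4% with the second rule, 1.67%, 2.43%, 2.04% and 2.39% with at most 1 endothelial marker, and 24.3%, 15.1%, 9.06% and 13.0% as a mean of CPM per cell. It was 39.8%, 21.5% and 24.3% on days 1, 3 and 7 with at least 4 markers, and 50.8%, 44.2% and 27.0% in sham and on days 1 and 7 with the 5% limit. The 2-fold higher genes on days 1, 3 and 7, 112, 132 and 279, were 72, 36 and 108 by the mean per cell, 186, 566 and 914 after carry-over subtraction, 265, 213 and 427 with no CPM minimum, and 42, 55 and 72 with a minimum of 200 CPM. On day 1 they were 208 with a minimum of 20 CPM. On days 3 and 7 they were 18 and 101 with the 3000 gene limit, 32 and 120 with at most 1 endothelial marker, and 68 and 77 under TMM. On day 3 they were 212 after free RNA subtraction. On day 7 they were 167 with 20 CPM added and 174 with at most 1 endothelial marker and free RNA subtracted. The lower genes, 150, 200 and 126, were 75, 52 and 38 with the 3000 gene limit, 91, 42 and 34 with at most 1 endothelial marker, 58, 35 and 38 after carry-over subtraction, 320, 453 and 372 after free RNA subtraction, and 55, 87 and 63 with a minimum of 200 CPM. On day 1 they were 242 with at most 1 endothelial marker and free RNA subtracted. On day 7 they were 202 without doublets and 264 under TMM. Some lists turned direction. With at most 1 endothelial marker the day 3 ratio of the chemokines was 1.14, against 0.493 in all pericytes, that of the endothelial list 1.23 against 0.463 and that of the choroid plexus list 0.997 against 3.16, and the day 7 endothelial ratio was 1.34 against 0.490. With free RNA also subtracted these were 1.36, 1.45, 0 and 1.23, the STAT3 list on day 3 was 0.849 against 2.19, and the astrocyte list 0.771 against 2.54. After carry-over subtraction the day 3 chemokines were 1.62 and the MHC class I list 1.45, 2.12 and 1.92 on days 1, 3 and 7, against 0.491, 0.668 and 0.614. The red blood cell list on day 3, 2.59, was 0.937 with at least 4 markers and 0.892 with the second rule. The oligodendrocyte list on day 7, 3.30, was 0.376 with the second rule, and the choroid plexus list on day 7, 2.06, was 0.553 with the 3000 gene limit. The interferon list stayed below sham on all 3 days in all 11 settings.

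The limits of these values are the single library per condition, the unequal depth (a median of 1668 to 3517.5 UMIs per pericyte) and the 207 endothelial-poor pericytes of sham, in which genes under about 50 CPM rest on few molecules. Counting intervals do not hold the spread between mice, and library and condition cannot be told apart.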
